A study of Mus musculus with 11 samples.

Results

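The 10 genes described here are Smad6, Smad7, Id1, Id2, Id3, Bmp4, Tgfb1, Tgfbr2, Bambi and Skil, which belong to transforming growth factor beta (TGF-beta) and bone morphogenetic protein (BMP) signalling. They were taken as a list of symbols, by a rule that uses no measured value, from 20640 gene symbols measured in sorted muscle stem cells of middle-aged and geriatric mice. The list was nonetheless chosen with earlier results of these data known. All 10 were present in the table, and all 10 passed the filter for testing, which kept 11568 symbols.

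TGF-beta and BMP ligands bind a pair of type II and type I receptors, and the type I receptor phosphorylates receptor-regulated SMAD proteins, which enter the nucleus with Smad4 and change transcription. Smad1, Smad5 and Smad9 carry the BMP signal, and Smad2 and Smad3 carry the TGF-beta and activin signal. Transcription of the inhibitory SMADs and of the Id genes is raised by these signals in many cell types, so they are widely read as response genes. In skeletal muscle, TGF-beta and myostatin restrain differentiation of muscle stem cells, and BMP signalling, acting in part through Id proteins that block the myogenic factor MyoD, favours their proliferation.

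Bulk RNA-seq was run on 11 libraries of limb muscle stem cells from Pax7-CreERT2;Rosa-YFP mice, in which tamoxifen switches on YFP in cells that express Pax7, the marker gene of muscle stem cells. All mice received tamoxifen by mouth at 240 mg/kg for 5 days at 12 to 14 weeks of age, and all libraries come from YFP+ cells sorted as negative for Sca-1, CD31 and CD45. The middle-aged group has 3 libraries (10 to 14 months in the sample labels and 12 to 14 months in the extraction protocol), with no VCAM1 gate named in its titles. Cells of geriatric mice older than 28 months were split by surface VCAM1 into VCAM1-high (3 libraries), VCAM1-low (2 libraries) and VCAM1-negative (3 libraries). The design text names the lower gates differently from the titles, which are followed here. A comparison with the middle-aged group thus changes age, gating and time since labelling together, and these cannot be told apart. YFP reports past Pax7 expression and stays on if a cell later loses Pax7. The labels do not state whether replicates came from separate animals or pools, and p-values therefore measure the spread between these libraries, which may be technical.

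Levels are RPKM, reads scaled to gene length and to the reads in the library, as deposited by the authors. Because RPKM is scaled by gene length, levels can be compared roughly between genes, though the gene lengths and the counting of reads were not given. Depth estimated from the deposited values ran from 19.9 to 29.9 megareads, at which 1 read of a 1 kb gene is 0.0335 to 0.0503 RPKM. All 7 muscle stem cell markers were detected in every library, and their summed level was 1018 to 1590.0 RPKM in middle-aged, 571 to 1101 in the VCAM1-high gate, 388 to 848 in the VCAM1-low gate and 297 to 750.2 in VCAM1-negative libraries. Chrdl2 had the highest level on that list. Pax7 itself ranged from 1.71 to 7.85 RPKM. Middle-aged replicate 3 and VCAM1-high replicate 3 stood apart from their groups in markers of other cell types (values below), so results are also given without the number-3 libraries. In bulk samples, fewer cells of a type and less RNA per cell cannot be told apart.

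Promoter windows were available for 6 of the 10 genes (Smad6, Id2, Id3, Bmp4, Tgfb1 and Tgfbr2) in a RefSeq table of build GRCm38.p6, while the submitters' processing notes name GRCm39 for the RNA-seq. Each window of 300 bases, from 250 before the annotated start to 50 after it, was searched for GTCTAGAC, the palindromic SMAD-binding element, and for GGCGCC, a GC-rich element bound by BMP-activated SMADs. Both motifs read the same on both strands and do not overlap one another. GTCTAGAC was found in 1 of the 6 windows, that of Smad6, and in 0.213% of all 32851 windows in the table. GGCGCC was found in 1 of the 6 windows, that of Id2, and in 11.9% of all windows. The Smad6 and Id2 sequences are shown because they hold these motifs and because Smad6 gave the lowest F test p of the 10 genes. They run 5′ to 3′ on the minus strand, from 250 bases before the start to 10 bases after it, with the motifs in capitals.
Smad6 (GRCm38.p6, chr9:64022050-64022309): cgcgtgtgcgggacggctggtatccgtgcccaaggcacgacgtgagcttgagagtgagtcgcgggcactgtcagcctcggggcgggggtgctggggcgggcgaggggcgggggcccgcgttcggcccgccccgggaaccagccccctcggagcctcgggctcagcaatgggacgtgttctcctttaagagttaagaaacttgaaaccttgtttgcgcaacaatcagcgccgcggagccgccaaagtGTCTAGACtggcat
Id2 (GRCm38.p6, chr12:25096083-25096342): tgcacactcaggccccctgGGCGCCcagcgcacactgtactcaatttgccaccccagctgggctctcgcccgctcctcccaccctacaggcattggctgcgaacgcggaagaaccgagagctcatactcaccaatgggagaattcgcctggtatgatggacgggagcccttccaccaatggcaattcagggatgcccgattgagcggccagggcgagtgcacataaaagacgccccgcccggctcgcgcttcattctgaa
The first base of GTCTAGAC lies 4 bases before the annotated start of Smad6, and the first base of GGCGCC lies 231 bases before that of Id2. A match describes the letters of the window and does not show that a SMAD protein binds there.

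The inhibitory SMADs were higher in geriatric than in middle-aged cells. Smad6, which blocks mainly BMP signalling, rose in all 3 VCAM1 gates. Smad7, which blocks both TGF-beta and BMP signalling by recruiting ubiquitin ligases to the type I receptor, rose in VCAM1-negative and VCAM1-low cells. For both genes, the 8 geriatric libraries all lay above the 3 middle-aged ones, as they did for 9.04% of all tested genes.

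Smad6 stood at 5.92, 7.49 and 4.66 RPKM in the 3 middle-aged libraries. It read 14.6, 19.4 and 12.7 RPKM in the VCAM1-high gate, 17.1 and 14.9 in the VCAM1-low gate and 17.7, 14.3 and 20.0 in VCAM1-negative libraries. The lowest geriatric library thus lay well above the highest middle-aged one, whereas the 3 geriatric groups overlapped. Mean levels were 6.02 ± 1.42 RPKM (SD, n = 3) in middle-aged, 15.6 ± 3.43 RPKM (SD, n = 3) in the VCAM1-high gate, 16.0 ± 1.59 RPKM (SD, n = 2) in the VCAM1-low gate and 17.3 ± 2.85 RPKM (SD, n = 3) in VCAM1-negative cells. On the log2(RPKM + 1) scale, which understates changes of low genes, Smad6 was higher by 1.39 ± 0.21 (SE) in VCAM1-negative than in middle-aged cells (adjusted p = 0.00578, limma with Benjamini-Hochberg adjustment over all 11568 genes). The difference was 1.24 ± 0.21 in VCAM1-high (adjusted p = 0.0313) and 1.29 ± 0.24 in VCAM1-low cells (adjusted p = 0.0228). Same-numbered VCAM1-high and middle-aged libraries differed by 1.18, 1.27 and 1.28 for numbers 1, 2 and 3. The size was less even for VCAM1-negative (1.43, 0.85 and 1.89) and VCAM1-low libraries (1.39 and 0.90 for numbers 1 and 2). No label states that same-numbered libraries are pairs.

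The Smad6 difference in VCAM1-negative cells passed adjusted p of 0.05 in 21 of 21 alternative analyses, with adjusted p between 0.00209 and 0.0307. The lowest came from a fit with the replicate number as a block. In VCAM1-high cells the Smad6 difference passed in 8 of 21. Leaving out any 1 of 9 libraries raised its adjusted p to between 0.0518 and 0.174, the highest without VCAM1-high replicate 2, while it passed without VCAM1-high replicate 3 (adjusted p = 0.0232) or VCAM1-negative replicate 2 (adjusted p = 0.0438). The log2 difference lay between 1.08 and 1.39 in the 9 fits that lost the call. In VCAM1-low cells the Smad6 call was lost without middle-aged replicate 1 (adjusted p = 0.0671), middle-aged replicate 3 (adjusted p = 0.0575), VCAM1-low replicate 1 (adjusted p = 0.0808) or VCAM1-low replicate 2 (adjusted p = 0.207), and with no filter on low values (adjusted p = 0.0527).

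Smad7 stood at 5.52, 7.92 and 5.17 RPKM in middle-aged libraries. Its levels were 9.11, 15.0 and 8.93 RPKM in the VCAM1-high gate, 17.2 and 13.2 in the VCAM1-low gate and 13.3, 12.1 and 19.8 in VCAM1-negative libraries. VCAM1-high replicates 1 and 3 lay just above the highest middle-aged library, and VCAM1-negative replicate 3 was the highest of all 11. Group means were 6.20 ± 1.49 RPKM (SD, n = 3) in middle-aged, 11.03 ± 3.48 RPKM (SD, n = 3) in the VCAM1-high gate, 15.2 ± 2.85 RPKM (SD, n = 2) in the VCAM1-low gate and 15.0 ± 4.17 RPKM (SD, n = 3) in VCAM1-negative cells. The log2 difference from middle-aged cells was 1.15 ± 0.26 in VCAM1-negative (adjusted p = 0.0194, limma) and 1.18 ± 0.29 in VCAM1-low cells (adjusted p = 0.0469, limma). In VCAM1-high cells it was 0.72 ± 0.26 and did not pass (adjusted p = 0.222, limma).

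The Smad7 call in VCAM1-negative cells was lost without middle-aged replicate 1 (adjusted p = 0.0639), middle-aged replicate 3 (adjusted p = 0.0570) or VCAM1-negative replicate 3 (adjusted p = 0.0563). Without all number-3 libraries the difference was 0.84 (adjusted p = 0.103). The VCAM1-low call was lost without any 1 of 7 libraries, with adjusted p up to 0.272 when VCAM1-low replicate 2 was left out. It was also lost with no filter (adjusted p = 0.0887), without all number-3 libraries (adjusted p = 0.0763) and without number 3 of the middle-aged and VCAM1-high groups (adjusted p = 0.0874).

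**Figure D1:**
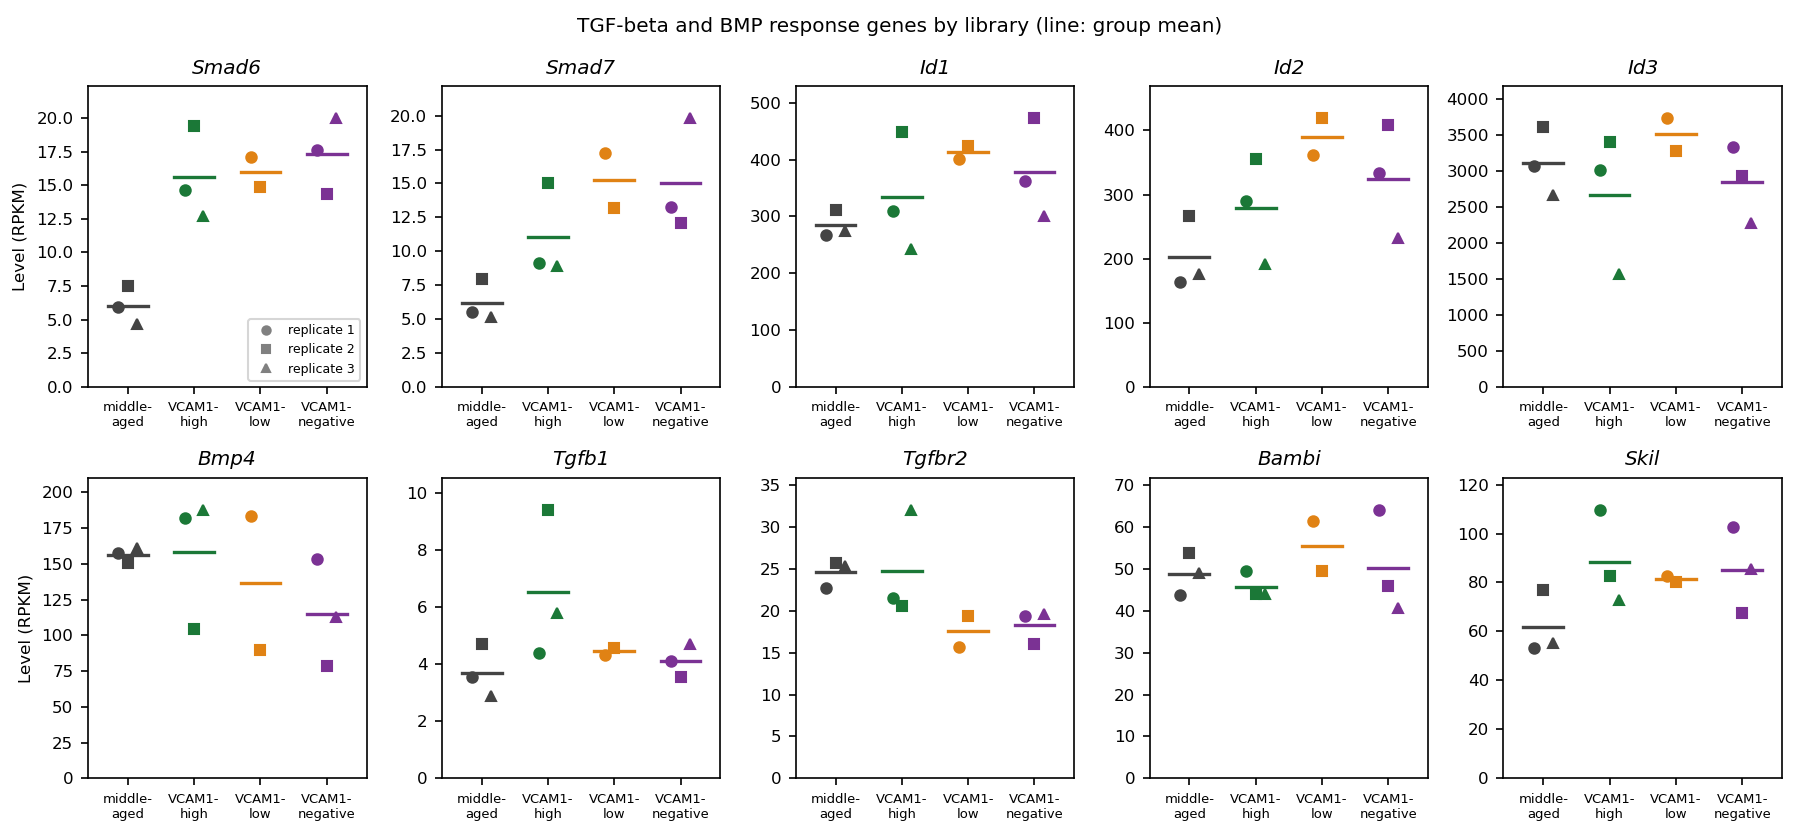
Level (RPKM) of each of the 10 genes in each of the 11 libraries, by group, with a line at the group mean. Each point is 1 library and its shape gives the replicate number. In the Smad6 and Smad7 panels the 3 middle-aged points lie below all 8 geriatric points, and in the other 8 panels the middle-aged points overlap those of at least 1 geriatric group.

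Between the geriatric gates neither inhibitory SMAD differed past the threshold. The log2 difference between VCAM1-negative and VCAM1-high cells was 0.15 ± 0.21 for Smad6 (95% interval -0.32 to 0.62, adjusted p = 0.914, limma) and 0.42 ± 0.26 for Smad7 (95% interval -0.14 to 0.98, adjusted p = 0.841, limma). Within same-numbered pairs the Smad7 difference was 0.50, -0.30 and 1.07 for numbers 1, 2 and 3, so it did not keep its sign. The intervals leave room for gate differences of up to about 0.62 for Smad6 and 0.98 for Smad7 on the log2 scale. Middle-aged cells had the lowest mean of both genes, and the order of the 3 geriatric means was within their spread.

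Markers of other cell types varied between libraries. The 11 endothelial markers, all detected in every library, summed to 25.4, 36.4 and 335 RPKM in middle-aged, 19.7, 44.0 and 136 in the VCAM1-high gate, 58.3 and 98.9 in the VCAM1-low gate and 111, 167 and 53.2 in VCAM1-negative libraries. Middle-aged replicate 3 had the highest endothelial sum of all 11 libraries and the lowest Smad6 and Smad7 levels. The middle-aged libraries at 25.4 and 36.4 RPKM lay below every VCAM1-low and VCAM1-negative library in this sum, as they did for Smad6 and Smad7. VCAM1-high libraries lay on both sides of them, at 19.7, 44.0 and 136 RPKM. The 9 myofibre markers, led by Acta1, summed to 134 to 285 RPKM in middle-aged, 52.7 to 124 in VCAM1-high and 48.6 to 145 in VCAM1-low libraries, against 629, 6519 and 5005 in VCAM1-negative ones. All 3 VCAM1-negative libraries lay above all others in this sum.

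The 8 macrophage and leukocyte markers summed to 25.5, 5.21 and 126 RPKM in middle-aged, 2.63, 13.6 and 777 in the VCAM1-high gate, 34.1 and 46.4 in the VCAM1-low gate and 66.0, 78.0 and 202 in VCAM1-negative libraries, and Ptprc, Adgre1, Csf1r and Mrc1 were listed at 0 in some. VCAM1-high replicate 3, with the highest macrophage sum, had the lowest Smad6 level of the geriatric libraries. The middle-aged libraries at 25.5 and 5.21 RPKM lay below every VCAM1-low and VCAM1-negative library in this sum, as they did for Smad6. VCAM1-high libraries at 2.63 and 13.6 RPKM lay below the middle-aged library at 25.5 RPKM and had higher Smad6 levels. The 8 fibro-adipogenic progenitor markers summed to 324, 552 and 1327 RPKM in middle-aged, 585 to 891 in the VCAM1-high gate, 594 to 698 in the VCAM1-low gate and 587 to 1032 in VCAM1-negative libraries. A few genes made up most of these sums. In middle-aged replicate 1 Cd34 was at 149 and Dpt at 142 RPKM, with Pi16 at 0.12 and Smoc2 at 0.87. In middle-aged replicate 3 Pi16 was at 16.4 and Smoc2 at 74.5 RPKM. Pdgfra did not exceed 2.37 RPKM in any library. Dcn, which led that list, was at 24.5, 52.9 and 485 RPKM in middle-aged, 326, 501 and 439 in the VCAM1-high gate, 491 and 444 in the VCAM1-low gate and 795, 444 and 704 in VCAM1-negative libraries. Dpt, on the same list, went the other way. It was at 142, 244 and 249 RPKM in middle-aged and 9.76 to 117 RPKM in geriatric libraries. Every other gene of that list overlapped between middle-aged and geriatric libraries, so the list did not move as one.

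The smooth muscle and pericyte markers summed to 112 to 404 RPKM in middle-aged and 59.4 to 129 RPKM in VCAM1-negative libraries. The 3 erythroid markers in the table (of 5 listed), led by the globin gene Hbb-bs, summed to 22.1, 5.77 and 165 RPKM in middle-aged, 14.0, 54.0 and 488 in the VCAM1-high gate, 523 and 650.0 in the VCAM1-low gate and 346, 650.3 and 194 in VCAM1-negative libraries. Every VCAM1-low and VCAM1-negative library lay above every middle-aged one in this sum, as they did for Smad6 and Smad7. Schwann cell markers summed to 2.47 to 17.4 RPKM and tenocyte markers to 14.5 to 125 RPKM in middle-aged libraries, with 3.62 to 18.8 and 24.0 to 40.1 RPKM in geriatric ones. The sum of muscle stem cell markers was lower in VCAM1-low and VCAM1-negative libraries than in every middle-aged library, and the part of all these markers in the Smad6 and Smad7 results was not tested. Without the number-3 libraries of the middle-aged and VCAM1-high groups, Smad6 differed by 1.22 on the log2 scale between VCAM1-high and middle-aged cells (adjusted p = 0.0562, limma).

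**Figure D2:**
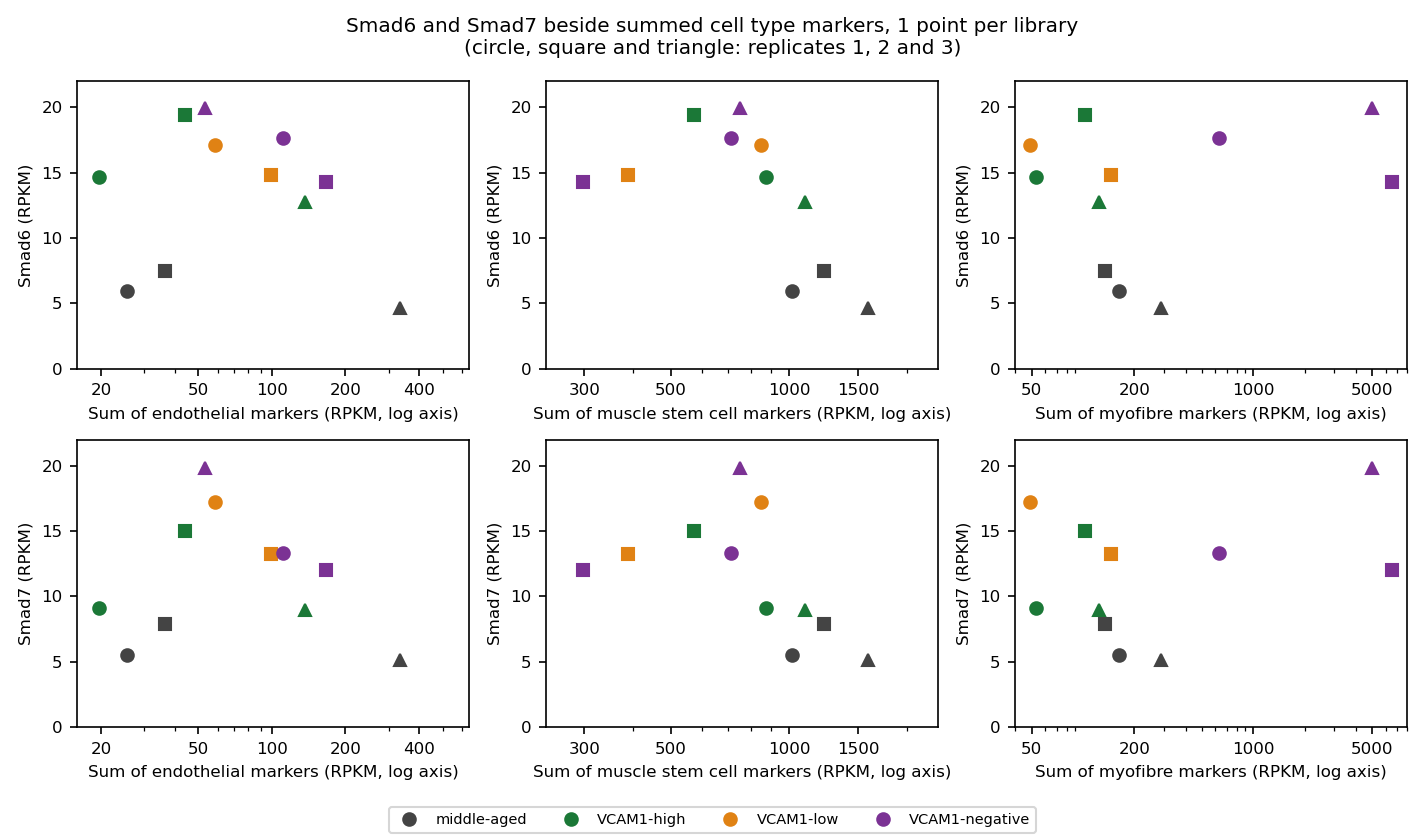
Smad6 (top row) and Smad7 (bottom row) level in RPKM against the summed level of endothelial, muscle stem cell and myofibre markers (RPKM, log axes), with 1 point per library. The middle-aged libraries lie below the geriatric ones in both rows, with endothelial sums of 25.4, 36.4 and 335 RPKM against 19.7 to 167 RPKM, and the 3 VCAM1-negative libraries lie at the right of the myofibre axis.

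The Id genes encode helix-loop-helix proteins without a DNA-binding domain that bind E proteins and so hold back MyoD. They were the most abundant of the 10 genes, and none passed the threshold in any comparison. Id3 was at 3072, 3615 and 2667 RPKM in middle-aged, 3018, 3405 and 1568 in the VCAM1-high gate, 3736 and 3286 in the VCAM1-low gate and 3335, 2932 and 2279 in VCAM1-negative libraries. VCAM1-high replicate 3 was the lowest of all 11, and the groups overlapped. The log2 difference of Id3 from middle-aged cells was -0.29 ± 0.28 in VCAM1-high (adjusted p = 0.640, limma) and -0.14 ± 0.28 in VCAM1-negative cells (adjusted p = 0.759, limma).

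Id2 was at 163, 267 and 175 RPKM in middle-aged, 290.4, 356 and 191 in the VCAM1-high gate, 362 and 419 in the VCAM1-low gate and 333, 409 and 231 in VCAM1-negative libraries. Both VCAM1-low libraries lay above every middle-aged library, in a comparison where 44.8% of all tested genes did not overlap. They also lay above every VCAM1-high library, for which that share is not given. Number 3 was the lowest library of the VCAM1-high and VCAM1-negative groups and overlapped with middle-aged replicate 2. The log2 difference from middle-aged cells was 0.45 ± 0.29 in the VCAM1-high gate, 0.98 ± 0.32 in the VCAM1-low gate and 0.68 ± 0.29 in VCAM1-negative cells, with adjusted p of 0.475, 0.0937 and 0.124 in limma.

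Id1 was at 268, 311 and 275 RPKM in middle-aged, 309.7, 448 and 243 in the VCAM1-high gate, 402 and 424 in the VCAM1-low gate and 363, 473 and 299.9 in VCAM1-negative libraries. Its highest value was in VCAM1-negative replicate 2 and its lowest in VCAM1-high replicate 3, with overlap between middle-aged libraries and both of these groups. The log2 difference from middle-aged cells was 0.39 ± 0.24 in VCAM1-negative cells (adjusted p = 0.269, limma) and 0.19 ± 0.24 in VCAM1-high cells (adjusted p = 0.735, limma).

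The balance among the Id genes can be read within each library, where the scaling to library size cancels. The level of Id3 divided by that of Id2 was 18.8, 13.5 and 15.2 in middle-aged libraries. It was 10.4, 9.57 and 8.21 in the VCAM1-high gate, 10.3 and 7.84 in the VCAM1-low gate and 10.0, 7.17 and 9.85 in VCAM1-negative libraries, so every geriatric library lay below every middle-aged one. The ratio of Id3 to Id1 was 11.5, 11.6 and 9.71 in middle-aged, 9.74, 7.59 and 6.46 in the VCAM1-high gate, 9.30 and 7.76 in the VCAM1-low gate and 9.20, 6.20 and 7.60 in VCAM1-negative libraries, where VCAM1-high replicate 1 lay at the lowest middle-aged value. These ratios were formed after the levels had been seen and are given as descriptions. Whether the Id genes changed unequally was not tested, and how often ratios of other gene pairs separate these groups was not counted. A ratio also does not tell which gene of the pair differed.

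Among ligands and receptors, no gene passed the threshold in any comparison. Bmp4, a BMP ligand, was at 158, 150.5 and 161 RPKM in middle-aged, 182, 104 and 188 in the VCAM1-high gate, 183 and 89.8 in the VCAM1-low gate and 153, 78.9 and 113 in VCAM1-negative libraries. The middle-aged libraries were close together, and in each geriatric gate the number-2 library was the lowest. The log2 difference was -0.49 ± 0.32 between VCAM1-negative and middle-aged cells (adjusted p = 0.302, limma) and -0.46 ± 0.32 between VCAM1-negative and VCAM1-high cells (adjusted p = 0.856, limma).

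Tgfb1, the most studied TGF-beta ligand, was near the low end of the 10 genes. It was at 3.54, 4.70 and 2.88 RPKM in middle-aged, 4.41, 9.43 and 5.81 in the VCAM1-high gate, 4.33 and 4.58 in the VCAM1-low gate and 4.11, 3.56 and 4.70 in VCAM1-negative libraries. VCAM1-high replicate 2 stood highest, and the groups overlapped. Tgfb1 differed by 0.65 ± 0.24 between VCAM1-high and middle-aged cells (adjusted p = 0.249, limma) and by -0.51 ± 0.24 between VCAM1-negative and VCAM1-high cells (adjusted p = 0.770, limma).

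Tgfbr2, the type II receptor for TGF-beta, was at 22.8, 25.7 and 25.4 RPKM in middle-aged, 21.5, 20.6 and 32.1 in the VCAM1-high gate, 15.7 and 19.4 in the VCAM1-low gate and 19.4, 16.0 and 19.6 in VCAM1-negative libraries. Every VCAM1-low and VCAM1-negative library lay below every library of the other 2 groups. Such a lack of overlap was common over all tested genes. VCAM1-negative libraries did not overlap with middle-aged ones for 39% and with VCAM1-high ones for 11.4%. VCAM1-low libraries did not overlap with middle-aged ones for 44.8%, and their share against VCAM1-high is not given. The log2 difference of VCAM1-negative cells was -0.41 ± 0.19 from middle-aged (95% interval -0.84 to 0.02, adjusted p = 0.164, limma) and -0.39 ± 0.19 from VCAM1-high cells (95% interval -0.82 to 0.04, adjusted p = 0.785, limma), neither of which passed.

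Bambi encodes a pseudoreceptor that lacks a kinase domain and dampens TGF-beta and BMP signals at the membrane. Its level was 43.8, 53.8 and 49.1 RPKM in middle-aged, 49.5, 44.0 and 43.9 in the VCAM1-high gate, 61.5 and 49.4 in the VCAM1-low gate and 64.2, 45.9 and 40.8 in VCAM1-negative libraries. All groups overlapped with the middle-aged one. The log2 difference from middle-aged cells was -0.09 ± 0.19 in VCAM1-high and 0.02 ± 0.19 in VCAM1-negative cells, with 95% intervals of -0.52 to 0.33 and -0.41 to 0.44.

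Skil encodes SnoN, a corepressor that binds Smad2, Smad3 and Smad4 and is itself a TGF-beta target. It was at 53.1, 76.8 and 55.4 RPKM in middle-aged, 109.7, 82.5 and 72.7 in the VCAM1-high gate, 82.7 and 80.2 in the VCAM1-low gate and 103, 67.6 and 85.4 in VCAM1-negative libraries. Middle-aged replicate 2 overlapped with the VCAM1-high and VCAM1-negative groups. The log2 difference from middle-aged cells was 0.51 ± 0.22 in VCAM1-high (adjusted p = 0.318, limma) and 0.46 ± 0.22 in VCAM1-negative cells (adjusted p = 0.170, limma).

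Counted over the 10 genes, 1 (Smad6) passed adjusted p of 0.05 between VCAM1-high and middle-aged cells, where 0.605% of all tested genes passed. In VCAM1-negative against middle-aged cells 2 (Smad6 and Smad7) passed, where 14.4% of all tested genes did, so the count is near the background of that comparison. In VCAM1-low against middle-aged cells the same 2 genes passed, against 4.11% of all genes. Those comparisons share the middle-aged libraries. None of the 10 passed between VCAM1-negative and VCAM1-high cells, where 0% of all genes passed, the lowest adjusted p of any gene was 0.0501 and 755 genes (6.53%) had an unadjusted p under 0.05, though none of the 10 did. VCAM1-low against VCAM1-high and VCAM1-negative against VCAM1-low likewise gave no call (0% of all genes, with 337 genes, or 2.91%, and 217 genes, or 1.88%, at an unadjusted p under 0.05 in limma).

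The median log2 difference over the 10 genes was 0.32 between VCAM1-high and middle-aged cells, beside 0.04 over all tested genes, and 0.26 between VCAM1-negative and middle-aged cells, beside -0.02. Libraries of the 2 groups did not overlap for 2 of the 10 genes (Smad6 and Smad7) in VCAM1-high against middle-aged cells (20.2% of all tested genes), for 3 (with Tgfbr2) in VCAM1-negative against middle-aged cells (39% of all) and for 1 (Tgfbr2) in VCAM1-negative against VCAM1-high cells (11.4% of all). In VCAM1-low against middle-aged cells 6 of the 10 did not overlap (Smad6, Smad7, Id1, Id2, Skil and Tgfbr2), where 44.8% of all genes did not.

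**Figure D3:**
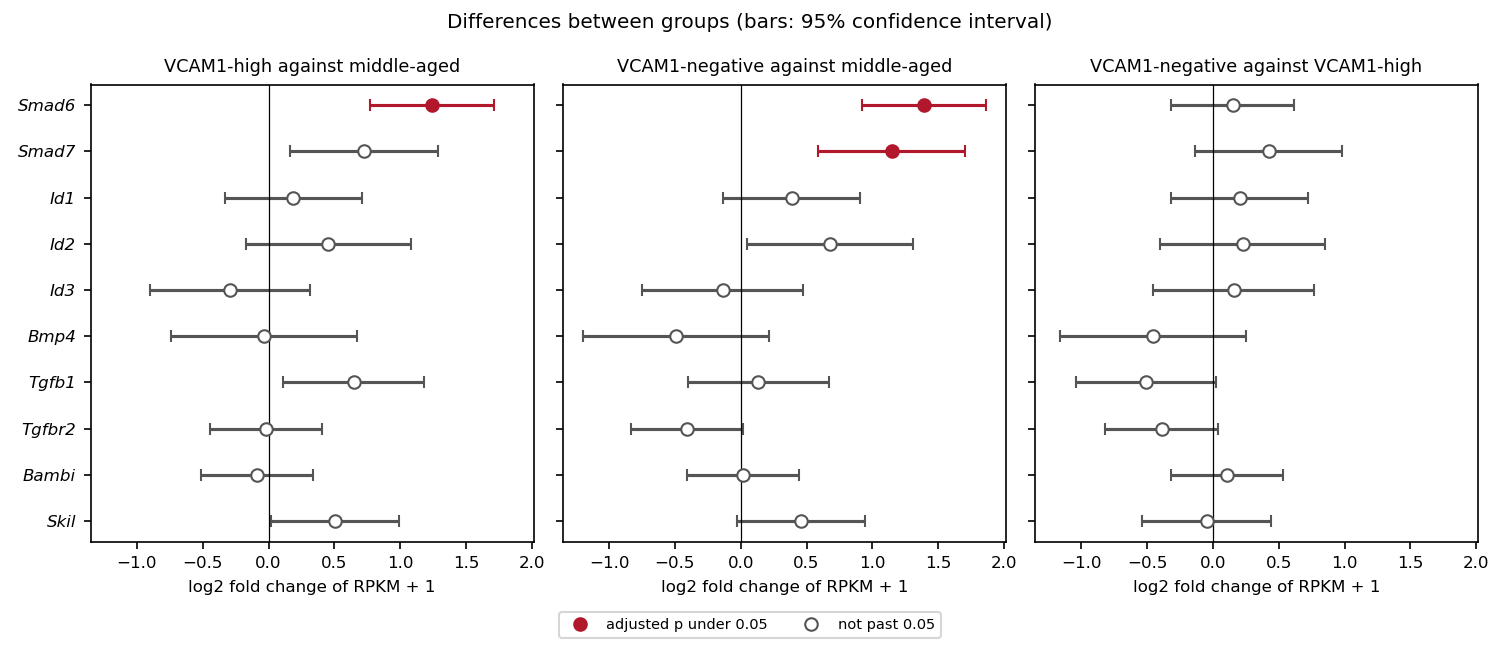
Log2 fold change of RPKM + 1 for the 10 genes in the 3 main comparisons, with 95% confidence intervals from limma. Filled red points have an adjusted p under 0.05 over all 11568 genes. Only Smad6 in VCAM1-high cells, and Smad6 and Smad7 in VCAM1-negative cells, are filled, and no gene is filled between the 2 gates.

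Taking the mean of the 3 geriatric gates against middle-aged cells, Smad6 was higher by 1.31 ± 0.18 (adjusted p = 0.00283, limma) and Smad7 by 1.02 ± 0.21 (adjusted p = 0.0142, limma), in a comparison where 15.8% of all genes passed. Without middle-aged replicate 1 or 3 the Smad7 call was lost, with adjusted p of 0.0630 and 0.0607, as it was without all number-3 libraries (adjusted p = 0.0502). Id2 differed by 0.70 ± 0.24 and did not pass (adjusted p = 0.0657, limma), but passed without VCAM1-high replicate 3 (adjusted p = 0.0295) or VCAM1-negative replicate 3 (adjusted p = 0.0466). Same-numbered geriatric libraries varied together, and this test treats them as independent. In the F test over the 4 groups, which 3.32% of all genes passed, Smad6 ranked 80 of 11568 (adjusted p = 0.0182), and Smad7 did not pass (adjusted p = 0.0650). The Smad6 call in the F test was lost without middle-aged replicate 1 (adjusted p = 0.0810), middle-aged replicate 3 (adjusted p = 0.0707) or all number-3 libraries (adjusted p = 0.0674) and with no filter (adjusted p = 0.0539). Smad7 passed the F test without VCAM1-high replicate 2 (adjusted p = 0.0434), with the replicate block (adjusted p = 0.0404) and with the filter at a mean of 5 RPKM (adjusted p = 0.0488). Id2 did not pass the main F test (adjusted p = 0.230) but passed it with the replicate block (adjusted p = 0.0338).

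Smad6 and Smad7 levels varied together across the 11 libraries (Pearson r = 0.93 on the log2 scale), as did Id1 and Id2 (r = 0.93), while r was 0.03 for Smad6 and Id3. Among 7614 other tested genes with a mean of at least 5 RPKM, those whose levels followed Smad6 most closely were Scn7a (r = 0.971), Traf3ip2 (r = 0.968) and Parp16 (r = 0.966). For Smad7 they were Smad3 (r = 0.961), Agap1 (r = 0.957) and Myod1 (r = 0.946), and for Id2 they were Iqcb1 (r = 0.978), Rbm7 (r = 0.968) and Mier3 (r = 0.962). These correlations share the group structure and the scaling of the same 11 libraries and are descriptions only.

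The rest of the pathway was described with 82 other genes in 11 lists, of which 64 passed the filter. Between VCAM1-negative and middle-aged cells 7 rose and 2 fell, where 7.06% of all tested genes rose and 7.38% fell. Of the 9 genes on the TGF-beta target list 3 rose, and none of the 4 tested genes on the BMP target list passed. The medians were ordered the other way. The median log2 difference was -0.11 over the TGF-beta target list and 0.36 over the tested BMP target genes. The 6 genes named next passed in at least 19 of 21 alternative analyses.

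Klf10, an early TGF-beta-induced zinc finger factor, was at 59.7, 58.9 and 41.4 RPKM in middle-aged and 155, 282 and 219 RPKM in VCAM1-negative libraries, with no overlap (log2 difference 1.99 ± 0.34, adjusted p = 0.00893, limma). Snai1, a repressor induced by TGF-beta during epithelial-mesenchymal transition, was at 1.84, 1.50 and 0.783 RPKM and 6.70, 11.3 and 16.2 RPKM in the same groups (2.34 ± 0.43, adjusted p = 0.0104, limma). Every VCAM1-negative library lay above every middle-aged one for both genes, in a comparison where 39% of all tested genes did not overlap. Both were named because they passed in this comparison, so the lack of overlap adds no support.

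Tgfbr1, the type I receptor that pairs with Tgfbr2, was at 12.1, 14.2 and 10.6 RPKM in middle-aged and 24.5, 26.2 and 28.2 RPKM in VCAM1-negative libraries (1.04 ± 0.22, adjusted p = 0.0158, limma). Its higher level stood beside the Tgfbr2 levels given above, which were lower in these libraries without passing the test. Smad3, a receptor-regulated SMAD of the TGF-beta branch, was at 6.84, 7.26 and 5.83 RPKM in middle-aged, 9.45, 11.8 and 7.80 in the VCAM1-high gate, 13.5 and 12.0 in the VCAM1-low gate and 13.0, 11.3 and 13.6 in VCAM1-negative libraries (VCAM1-negative against middle-aged 0.84 ± 0.18, adjusted p = 0.0170, limma). The other 4 tested receptor-regulated and common SMADs did not pass, among them Smad1, which was the most abundant of that list at 54.4 to 69.6 RPKM.

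The 2 genes that fell came from the antagonist and ligand lists. Fstl1, a secreted follistatin-like protein, was at 107, 98.0 and 113 RPKM in middle-aged, 73.2, 73.7 and 99.4 in the VCAM1-high gate, 46.8 and 46.7 in the VCAM1-low gate and 46.3, 32.5 and 55.5 in VCAM1-negative libraries (VCAM1-negative against middle-aged -1.26 ± 0.21, adjusted p = 0.00843, limma). Tgfb2, a second TGF-beta ligand, was at 17.7, 15.4 and 10.2 RPKM in middle-aged and 6.88, 5.93 and 4.57 RPKM in VCAM1-negative libraries (-1.17 ± 0.23, adjusted p = 0.0128, limma). All VCAM1-negative libraries lay below all middle-aged ones for both, in a comparison where 39% of all tested genes did not overlap.

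Bhlhe40, a basic helix-loop-helix repressor, differed by 0.86 ± 0.23 (adjusted p = 0.0349), Nedd4l, a ubiquitin ligase for activated Smad2 and Smad3, by 0.62 ± 0.18 (0.0417) and Acvr2a, a type II receptor for activin and myostatin, by 0.54 ± 0.16 (0.0453), with adjusted p from limma in parentheses. They passed in 14, 8 and 7 of the 21 alternatives. The count of passing pathway genes ran from 6 to 11 when 1 library was left out, with 6 without any 1 of the middle-aged libraries or VCAM1-negative replicate 1. Without all number-3 libraries 3 were higher and 4 lower.

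**Figure D4:**
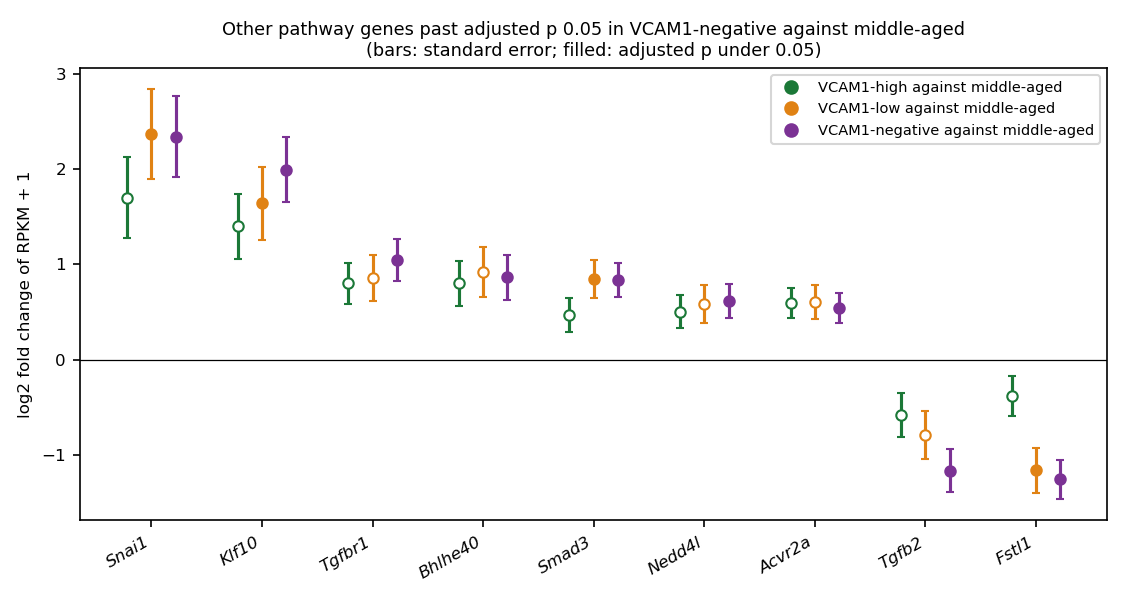
Log2 fold change of RPKM + 1 against middle-aged cells, with standard errors, for the 9 other pathway genes that passed in VCAM1-negative cells. The 3 colours are the 3 geriatric gates and filled points have an adjusted p under 0.05. All 3 gates have the same sign for every gene, and no VCAM1-high point is filled.

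In VCAM1-high against middle-aged cells none of the 64 passed in limma, although 14 had an unadjusted p under 0.05 (14.9% of all tested genes did) and 4 passed without VCAM1-high replicate 3. Same-numbered libraries of these 2 groups deviated together only in part. VCAM1-high replicate 1 correlated less with middle-aged replicate 1 (0.211) than with middle-aged replicate 2 (0.331), and no label states a pairing. The replicate number was then added as a block on all 11 libraries, with the VCAM1-low and VCAM1-negative ones included. There 6 of the 64 passed, all higher, where 6.98% of all tested genes passed. They were Klf10 (1.40, adjusted p = 0.0152), Fst (1.54, adjusted p = 0.0100), Snai1 (1.70, adjusted p = 0.0402), Acvr2a (0.59, adjusted p = 0.0310), Tgfbr1 (0.80, adjusted p = 0.0319) and Gdf6 (0.73, adjusted p = 0.0355). Fst encodes follistatin, which binds activin and myostatin, and it was at 2.50, 4.07 and 4.18 RPKM in middle-aged and 8.36, 22.7 and 9.23 RPKM in VCAM1-high libraries. The Smad6 call stayed under the block (adjusted p = 0.0153), and no other of the 10 genes passed.

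Between VCAM1-negative and VCAM1-high cells none of the 64 passed, with 5 at an unadjusted p under 0.05 (6.53% of all tested genes were). With the replicate block on all 11 libraries 2 fell, Fstl1 by 0.88 (adjusted p = 0.0394) and Gdf6, a BMP-family ligand at no more than 3.62 RPKM, by 1.15 (adjusted p = 0.0271), where 0.562% of all genes passed. With the block on the 8 geriatric libraries Bmp6 (adjusted p = 0.0149) and Ccn2 (adjusted p = 0.0430) also fell, by 0.95 and 1.05, which made 4 of the 64 where 4.32% of all genes passed. Bmp6, a BMP ligand, was at 109.7, 81.7 and 174 RPKM in VCAM1-high and 67.3, 43.4 and 73.0 RPKM in VCAM1-negative libraries, and Ccn2, a secreted TGF-beta and YAP target, at 427, 361 and 481 and 252, 103 and 317 RPKM. Within each number both were lower in the VCAM1-negative library.

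In VCAM1-low against middle-aged cells 4 of the 64 passed, beside 4.11% of all genes, with Klf10, Snai1 and Smad3 higher and Fstl1 lower. That count fell to 0 without any 1 of the middle-aged or VCAM1-low libraries, was 2 without VCAM1-high replicate 1, VCAM1-negative replicate 1 or VCAM1-negative replicate 3, and rose to 7 without VCAM1-high replicate 3. In the mean of the 3 gates 14 passed (15.8% of all genes did), 10 higher and 4 lower, with 5, 7 and 7 passing without middle-aged replicate 1, 2 and 3. Those not named so far were Chrd, a BMP antagonist (0.65 ± 0.18, adjusted p = 0.0365), and Atoh8, a BMP target (0.59 ± 0.16, adjusted p = 0.0340), which were higher, and Hey1 (-0.94 ± 0.28, adjusted p = 0.0460), a target of BMP and of Notch, and Col1a1 (-1.87 ± 0.48, adjusted p = 0.0273), a collagen gene on the TGF-beta target list, which were lower. Of 11 fits with 1 library left out, Hey1 passed in 2, Atoh8 and Chrd in 5 each and Col1a1 in 7, with adjusted p up to 0.152, 0.0990, 0.154 and 0.104. Col1a1 was at 0.717, 1.49 and 9.07 RPKM in VCAM1-high libraries, where replicate 3, the library with the highest macrophage sum, lay at the middle-aged level.

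Some pathway genes were abundant in every library, and others stayed below the filter. Junb, an AP-1 factor on the TGF-beta target list, had the highest mean of all 11568 tested genes, at 4322 to 6920 RPKM. The SMAD corepressor gene Tgif1 was at 319 to 544 RPKM. Ltbp4, which tethers latent TGF-beta in the matrix, was at 138 to 341 RPKM, and Pmepa1, a membrane protein that limits Smad2 and Smad3 activation, at 92.9 to 175 RPKM. Bmp6 and Tgfb3 led the ligand lists, with Tgfb3 at 43.4 to 88.2 RPKM, which was above every Tgfb1 and Tgfb2 level. The co-receptor genes Tgfbr3, or betaglycan, and Rgmb, which binds BMP ligands, were at 57.4 to 109.8 and 32.5 to 72.6 RPKM. Chrdl2, a BMP antagonist that also stands on the muscle stem cell marker list, was at 109 to 823 RPKM. Of the 82 genes 18 were below the filter, among them the antagonist genes Nog, Grem1 and Sost, the receptor gene Bmpr1b, and Mstn, which encodes myostatin and did not exceed 0.91 RPKM. Sost was listed at 0 in every library.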

How the data were processed

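Paired-end reads came from SMART-Seq v4 libraries of total RNA, per the labels' protocols. The authors deposited 1 table of RPKM values per gene symbol, with no read counts. The aligner STAR 2.7.5b, SAMtools 0.1.19, the adapter trimmer cutadapt 3.1, Bowtie2 2.1.0 and build GRCm39 are listed without their roles per the submitters' processing notes. How reads were counted, on which annotation and with what use of strand was not given in the sources used here. RPKM is relative, so a few very abundant genes in a library lower all its other values. Depth was estimated from the size of 1 read among low values. Of values up to 0.1 RPKM, 63.3 to 71.9% lay within 0.1 of a whole read, beside 20% by chance at a depth fixed beforehand. The depth was chosen to fit these same values, so 20% understates the share by chance. Whole reads were not recovered, and no count test was run.

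Values were tested as log2(RPKM + 1) with limma 3.58.1 (R 4.3.3) on the 11568 of 20640 symbols with at least 1 RPKM in at least 2 libraries. The model held 4 group means over all 11 libraries, with an intensity trend in the variance and Benjamini-Hochberg adjustment over all tested symbols. The procedure was tested on simulated data. Tables and figures used pandas 2.3.3, numpy 2.4.6 and matplotlib 3.10.9 (Python 3.11.15).

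Deviations of same-numbered libraries from their group means correlated at 0.414, 0.581 and 0.403 for VCAM1-high and VCAM1-negative, and at 0.211, 0.332 and 0.554 for VCAM1-high and middle-aged libraries, so these groups were also fitted with the number as a block. Some differently numbered middle-aged and VCAM1-high libraries correlated as well, such as VCAM1-high replicate 1 with middle-aged replicate 2 at 0.331. Same-numbered VCAM1-low or VCAM1-negative and middle-aged libraries correlated at -0.025 to 0.147, which gives little ground for pairing them. The block on 11 libraries nonetheless fitted a shared effect per number over all 4 groups, these included. No block was fitted to the VCAM1-high and middle-aged libraries alone. The pairing comes from these correlations and the titles' numbers, since no label says what a number stands for.

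Alternatives left out each library in turn, added the block, rescaled libraries to equal sums or by median ratios, changed the pseudocount (0.1 or 0.5) or the filter, and fitted only the groups compared. The 10 genes, the pathway and marker lists and the tests were chosen with earlier results of these data known. Named genes were the 10, the pathway genes past adjusted p of 0.05 (up to 4 per list), those with the highest mean in each list, and the 3 genes that correlated best with each of the 3 genes ranked first by the F test. A gene of the pathway lists is not reported here.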

Additional observations from a re-analysis of the deposited data

How the results depend on the processing

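Library number, scaling and filtering moved the counts over all genes. With the replicate block on 11 libraries, the genes past adjusted p of 0.05 in limma numbered 807 for VCAM1-high against middle-aged (main 70), 3656 for VCAM1-negative against middle-aged (main 1671), 1827 for VCAM1-low against middle-aged (main 475), 65 for VCAM1-negative against VCAM1-high (main 0), 3569 for the mean of the gates (main 1833) and 2025 in the F test (main 384). With the replicate block on the 8 geriatric libraries, VCAM1-negative against VCAM1-high gave 500 and VCAM1-low against VCAM1-high gave 1. Under the 11-library block Id2 passed against middle-aged in VCAM1-negative (0.68, adjusted p = 0.0120) and VCAM1-low cells (0.79, adjusted p = 0.0209). It also passed in the mean of the gates (0.64, adjusted p = 0.00718). In these comparisons the correlations gave little ground for pairing, though the block gives same-numbered libraries a shared effect. Under the same block the pathway count was 21 in VCAM1-negative cells (main 9), 13 in VCAM1-low cells (main 4) and 20 in the mean of the gates (main 14).

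VCAM1-negative against VCAM1-high gave 13 genes with equal sums, 16 with median ratios, 22 with pseudocount 0.1, 13 with pseudocount 0.5 and 18 with the filter at a mean of 5 RPKM. With no filter, the counts were 20, 870, 104, 1184 and 39 for VCAM1-high, VCAM1-negative and VCAM1-low against middle-aged, the mean of the gates and the F test. Fitting only the 2 groups gave 14 for VCAM1-high against middle-aged. The sets without number-3 libraries were chosen after seeing the data. Without all number-3 libraries, VCAM1-negative gave 826 against middle-aged and 9 against VCAM1-high, the mean of the gates 1120 and the F test 251. Without number 3 of the middle-aged and VCAM1-high groups, VCAM1-negative against VCAM1-high gave 1 and the mean of the gates 1164.

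With 1 library left out, counts ran from 18 to 240 (VCAM1-high against middle-aged), 339 to 1836 (VCAM1-negative against middle-aged), 1 to 825 (VCAM1-low against middle-aged), 0 to 128 (VCAM1-negative against VCAM1-high), 0 to 117 (VCAM1-negative against VCAM1-low), 521 to 2269 (mean of the gates) and 39 to 633 (F test).

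Uncalled differences of the 10 genes changed sign in places. They were 0.013 for Tgfbr2 in VCAM1-high against middle-aged cells with equal sums, 0.037 for Skil in VCAM1-negative against VCAM1-high cells with median ratios, -0.076 for Tgfb1 in VCAM1-negative against middle-aged cells without all number-3 libraries, and, in VCAM1-negative against VCAM1-high cells, -0.079 for Smad6 and -0.036 for Id3 without all number-3 libraries and -0.0032, -0.025 and -0.19 for Id1, Id2 and Id3 without number 3 of the middle-aged and VCAM1-high groups. With 1 library left out, VCAM1-high against middle-aged ran from -0.050 to 0.39 for Id1, -0.51 to 0.051 for Id3, -0.18 to 0.24 for Bmp4 and -0.21 to 0.094 for Tgfbr2. VCAM1-negative against middle-aged ran from -0.26 to 0.015 for Id3 and -0.17 to 0.15 for Bambi. VCAM1-negative against VCAM1-high ran from -0.0032 to 0.44 for Id1, -0.025 to 0.45 for Id2, -0.19 to 0.37 for Id3, -0.078 to 0.24 for Bambi and -0.19 to 0.12 for Skil.

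Smad6 and Smad7 stayed higher in every geriatric gate than in middle-aged cells under every alternative run. Losses of significance stand with their results. The Smad6 call in VCAM1-high cells was also lost with no filter (adjusted p = 0.0699), in the fit of only the 2 groups (adjusted p = 0.137) and without all number-3 libraries (adjusted p = 0.0630). The causes were not tested. With 2 or 3 libraries a group, a difference that did not pass is not shown to be absent. Tgfb1, near the lower end of the filter, had no value with the filter at a mean of 5 RPKM.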
